A study of Mus musculus with 4 samples.

Results

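The 8 genes described here, Gata1, Gata2, Klf1, Tal1, Zfpm1, Lmo2, Nfe2 and Gfi1b, encode transcription factors and cofactors of red cell and platelet formation. They were taken by symbol from the 32285 genes counted, and all 8 were found. The cells were Kit+ CD45.2+ mouse bone marrow taken 10 weeks after transplantation, stained with barcoded antibodies and run on 10x Genomics 3′ version 3.1 chemistry. Each of 4 groups had 1 library, labelled control or as deleted for Mll3, for Mll4 or for Mll3/4. The labels give no Cre driver, allele, strain, age, donor or host for any group, and the groups share the CD45.2 marker, the Kit selection and the time after transplantation. Mll3 (Kmt2c) and Mll4 (Kmt2d) encode histone methyltransferases that act at enhancers.

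These factors work as a circuit. GATA2 is active in stem and progenitor cells and in mast cells, and GATA1 takes over its binding sites as red cells and megakaryocytes form, a change known as the GATA switch. TAL1 binds DNA with E proteins and is tied to GATA factors by LMO2 and the adaptor LDB1. FOG-1, the product of Zfpm1, is a cofactor that GATA1 needs. KLF1 activates globin and other red cell genes through CACCC motifs, and NF-E2 is needed for platelet release. GFI1B is a repressor of transcription that recruits KDM1A and acts in both lineages.

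The labels of the deletions could not be checked in full from these counts. Kmt2c was at 47.9 CPM (counts scaled to the same total in every library) in control, 27.2 in the library labelled Mll3, 59.2 in the library labelled Mll4 and 34.8 in the library labelled Mll3/4. Kmt2d was at 25.8 CPM in control, and between 21.6 and 24.99 CPM in the other 3, so it did not fall with its label. A 3′ tag outside a deleted part checks nothing, and the groups are called by their labels throughout. Xist was at 0.519 CPM in the library labelled Mll4, against 990 CPM in control, 955 in the library labelled Mll3 and 1839 in the library labelled Mll3/4. The sex of the cells therefore differed with that label, and its part in any difference, including that of X-linked Gata1, cannot be told apart from the deletion. After filtering, 5350 to 7146 cells per library remained, with median gene UMIs (unique molecular identifiers, 1 per captured transcript) of 15754, 16964, 5142 and 9965 in the order above. Pairs of libraries shared 9 to 24 barcodes.

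Clustering without the 8 genes gave 27 clusters, which were named as X-like from marker lists that hold none of the 8. Erythroid progenitor-like cells numbered 1589 in control, 1587 in the library labelled Mll3, 503 in the library labelled Mll4 and 2 in the library labelled Mll3/4. All 12 erythroid markers were detected in the class in the first 3 libraries, with summed levels of 4725, 4814 and 4286 CPM. Megakaryocyte-like cells numbered 837, 708, 304 and 6, and cells like haematopoietic stem cells and multipotent progenitors (HSC/MPP-like) 913, 694 and 177 in the first 3 libraries. The library labelled Mll3/4 was 98.8% B-cell progenitor-like, so that library could be compared only over all cells and within B-cell progenitor-like cells. With 1 library per group there was no test between groups. A difference was called when CPM, with 1 added, differed by 1.5-fold or more and at least 20 counts stood in either library. Intervals are exact, at 95%, and cover counting error only. Those of a log2 ratio are of the count ratio without the added 1, so that at a few CPM they can sit off-centre.

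The sequences before the transcription starts are shown for 4 of the genes. Gata1, Klf1 and Gfi1b were chosen for their highest levels in the most mature erythroid cluster described next. Gata2 was chosen for its lowest erythroid level there. Tal1 was also highest in that cluster, but its pattern was broader and its sequences are not shown. The sequences were read from the RefSeq promoter table of GRCm38.p6, which matched 6 of the 8 genes with 8 starts. Lmo2 and Nfe2 had no entry. Each runs 5′ to 3′ on the gene's strand and ends at the base before the start, except that of Klf1, which leaves off its last 54 bases because the annotation places UTR there. Capitals mark GATAA, the core bound by GATA factors, and CACCC, the core bound by KLF factors, on either strand (TTATC and GGGTG).
Gata1, chrX:7967911-7968160, minus strand: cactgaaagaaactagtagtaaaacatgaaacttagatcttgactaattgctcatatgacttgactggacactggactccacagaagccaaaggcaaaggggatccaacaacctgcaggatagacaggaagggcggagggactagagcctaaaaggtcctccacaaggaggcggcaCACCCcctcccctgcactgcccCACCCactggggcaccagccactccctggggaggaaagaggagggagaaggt
Klf1, chr8:84901732-84901927, plus strand: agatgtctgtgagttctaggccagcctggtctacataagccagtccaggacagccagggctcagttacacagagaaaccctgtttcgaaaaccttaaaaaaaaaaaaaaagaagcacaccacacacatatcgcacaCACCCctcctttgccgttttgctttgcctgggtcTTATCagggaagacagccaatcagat
Gfi1b, chr2:28621983-28622232, minus strand: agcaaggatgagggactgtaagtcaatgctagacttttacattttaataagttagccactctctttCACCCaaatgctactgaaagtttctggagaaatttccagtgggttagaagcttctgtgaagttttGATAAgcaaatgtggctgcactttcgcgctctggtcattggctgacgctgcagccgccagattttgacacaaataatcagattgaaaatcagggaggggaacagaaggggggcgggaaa
Gata2, first start, chr6:88193641-88193890, plus strand: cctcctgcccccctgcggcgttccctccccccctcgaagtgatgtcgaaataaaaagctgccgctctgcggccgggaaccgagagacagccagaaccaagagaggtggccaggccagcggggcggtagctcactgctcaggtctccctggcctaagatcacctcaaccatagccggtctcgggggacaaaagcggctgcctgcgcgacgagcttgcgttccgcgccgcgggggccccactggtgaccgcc

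Klf1 and Gfi1b held 1 match to each motif in the 250 bases before the start, and Tal1 did so at the first of its 2 starts. The nearest GATAA match began 80 bases before the start of Klf1 and 119 bases before that of Gfi1b. Gata1 held 2 CACCC matches and 0 GATAA matches, and Zfpm1 held 3 and 0. The first start of Gata2 held 0 of either, and the second held 1 CACCC match. Among 32851 windows of 250 bases before RefSeq starts, 22.6% held GATAA, 52.0% held CACCC and 10.1% held both, so each motif is common in windows of this length. A match is a run of letters and not a measured site.

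On the annotation of GRCm38 (mm10), the genes lie apart on 6 chromosomes: Gata1 at chrX:7959260-7978071 and Nfe2 at chr15:103248212-103258403, both on the minus strand, and Gata2 at chr6:88193891-88207032, Tal1 at chr4:115056426-115071755 and Klf1 at chr8:84901928-84905291, all on the plus strand. Zfpm1 shares chromosome 8 with Klf1 and lies at chr8:122282141-122337251 on the plus strand. Gfi1b at chr2:28609450-28621982 (minus) and Lmo2 at chr2:103957986-103981878 (plus) share chromosome 2. Lmo2 overlaps the antisense gene 4931422A03Rik, which had 38, 16, 10 and 1 counts in the 4 libraries. Zfpm1 overlaps Gm20388 on the same strand, a gene with no row in the counts, so reads of the 2 could not be set apart.

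In control, Gata1, Klf1 and Gfi1b had their highest levels in cluster 8, the erythroid progenitor-like cluster with the most erythroid markers. The 3 erythroid progenitor-like clusters run from cluster 2, with the lowest summed level of erythroid markers, through cluster 6 to cluster 8. Among the genes that led these clusters, 0, 1 and 4 were erythroid markers. The name of cluster 2, led by Apoe, Csrp3 and Clec4d, thus rests on its mean marker score alone. That cluster gave 1469 of the 3518 Gata2 counts of the class in control. Gata1, the master regulator of red cell formation, was at 65.1, 88.5 and 101 CPM along the 3 clusters, and each step exceeded counting intervals. Its next levels, 56.8 and 52.6 CPM in megakaryocyte-like clusters 11 and 1 and 39.8 CPM in basophil/mast-like cluster 14, did not differ between neighbours beyond their intervals. HSC/MPP-like clusters 13 and 4 held 6.7 and 3.9 CPM. Klf1 was at 93.1, 161 and 227 CPM in clusters 2, 6 and 8, and at 34.5 CPM in the next cluster in order, megakaryocyte-like cluster 11. Gfi1b was at 45.4, 33.5 and 77.9 CPM along the same clusters, so that cluster 6 lay below both of its neighbours, and at 49.2 and 39.2 CPM in megakaryocyte-like clusters 1 and 11.

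Gata2 had the opposite order along the erythroid progenitor-like clusters. It was highest in basophil/mast-like cluster 14, at 531 CPM, followed by megakaryocyte-like clusters 11 and 1, at 192 and 189 CPM, which did not differ beyond their intervals. It was at 162 CPM in erythroid progenitor-like cluster 2, below which came HSC/MPP-like clusters 4 and 13 at 116 and 87.6 CPM. In erythroid clusters 6 and 8 it was at 55.5 and 26.6 CPM. Thus the 2 clusters with the most Gata1 held less Gata2 than stem-like cells did.

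The partners had broader patterns. Tal1 lay between 78.2 and 117 CPM in the erythroid progenitor-like, megakaryocyte-like and basophil/mast-like clusters, with cluster 8 highest. Zfpm1 was highest in the megakaryocyte-like clusters, at 286 and 281 CPM, followed by 165 to 186 CPM in the erythroid ones. It also stood at 130 and 118 CPM in B-cell progenitor-like clusters 0 and 15, above its 91.8 CPM in HSC/MPP-like cluster 4. Lmo2 was highest in HSC/MPP-like cluster 4, at 680 CPM, and was at 310 to 348 CPM in the erythroid clusters. Nfe2 was at 145 CPM in the same stem-like cluster and 130 CPM in basophil/mast-like cells, which did not differ beyond their intervals, and reached 94.4 CPM in neutrophil-like cluster 9.

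**Figure D1:**
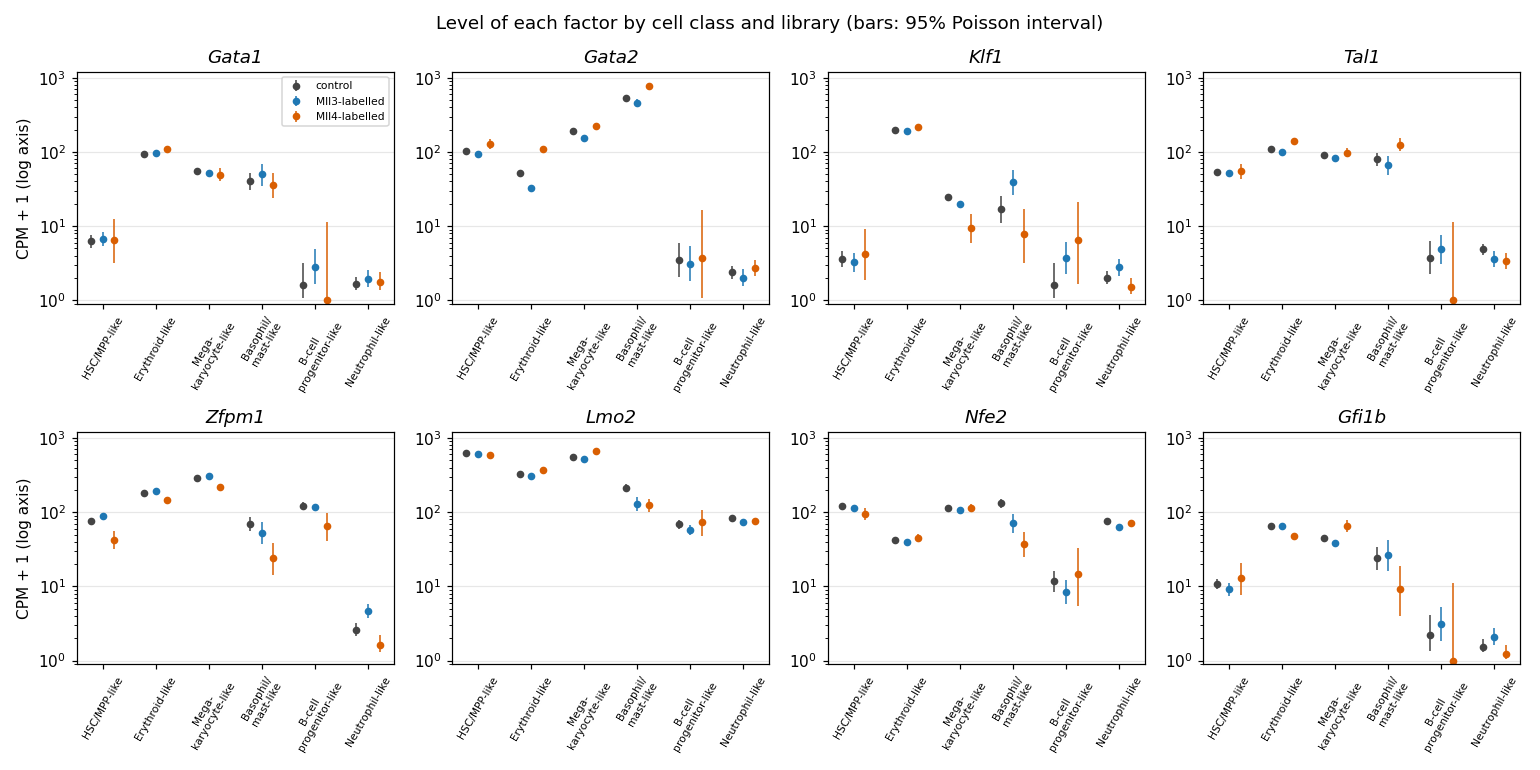
Level of each factor in 6 cell classes of the libraries labelled control, Mll3 and Mll4. The y axis is CPM with 1 added, on a log scale, points are single libraries and bars are 95% Poisson intervals. Gata2 in erythroid progenitor-like cells stands at 50.3, 31.5 and 108 CPM in the 3 libraries, while Gata1 stands between 93.9 and 108 CPM.

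Most counts of Gata1, Klf1 and Gfi1b came from 1 class. In control, erythroid progenitor-like cells gave 96.6% of the Klf1 counts, 86.7% of the Gata1 counts and 83.3% of the Gfi1b counts. They gave 73.2% for Tal1, 66.7% for Zfpm1 and 43.6% for Lmo2. For Gata2 the share was 38.1%, beside 31.4% from megakaryocyte-like cells. For Nfe2 it was 29.1%, and 18.2% came from neutrophil-like cells. In the library labelled Mll4, 25.5% of Gata2 counts came from basophil/mast-like cells, against 7.9% in control, and 46.2% of Nfe2 counts came from neutrophil-like cells.

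**Figure D2:**
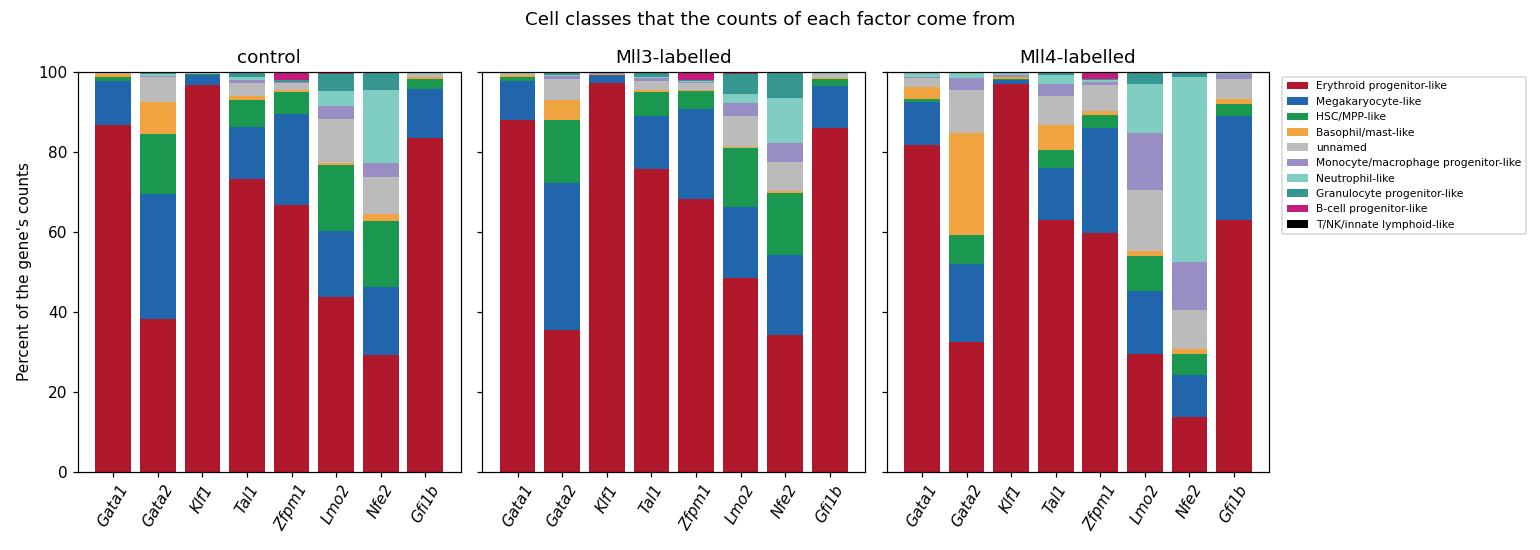
Percent of each gene's counts that came from each cell class, in stacked bars that sum to 100 for the libraries labelled control, Mll3 and Mll4. Klf1 stays above 95% erythroid progenitor-like in all 3, while the basophil/mast-like part of Gata2 is larger in the library labelled Mll4, at 25.5%.

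Over the 17 clusters with at least 50 control cells, the genes most like each factor were drawn from 8523 genes by Pearson's r of log2 levels. The clusters share 1 library and range in depth, so r is a description. The genes most like Klf1 were Epor, the erythropoietin receptor gene (0.980), Gm15915 (0.962) and Col5a1 (0.954). For Gata1 they were Sept8 (0.970), Gfi1b (0.963) and Mfsd2b (0.948), and for Gfi1b they were Gata1, Sept8 (0.950) and Hemgn (0.939), a red cell nuclear protein gene. For Gata2 they were Apoe (0.970), Slc8a1 (0.969) and Arhgap6 (0.963), and for Nfe2 Dach1 (0.971), Pafah2 (0.961) and Cpne2 (0.928). Tal1 went with Sdsl (0.964), Cela1 (0.956) and Cd59a (0.954), Zfpm1 with Tmem64 (0.956) and Bcl11a (0.955), and Lmo2 with Rhobtb3 (0.954), Rab38 (0.924) and Pfkl (0.916). Between members r ran from -0.02 for Zfpm1 and Nfe2 to 0.96 for Gata1 and Gfi1b. It was 0.92 for Gata1 and Klf1 and 0.74 for Gata1 and Gata2.

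Over all cells of a library, 0 of the 8 factors were called in the library labelled Mll3, where 2.36% of 14550 genes were called lower and 0.646% higher. Gata2 had the largest difference of the 8, at 60.1 CPM in control and 45.4 in the library labelled Mll3 (log2 ratio -0.40, interval -0.45 to -0.36). The other 7 lay between -0.18 for Nfe2 and 0.23 for Zfpm1.

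In the library labelled Mll4, 5 of the 8 factors were called lower over all cells and 0 higher, where 11.3% of 14452 genes were called lower and 15.1% higher. Zfpm1 stood at 123 CPM in control and at 50.5 CPM in the library labelled Mll4 (-1.27), Gfi1b at 35.1 and 15.2 CPM (-1.16) and Klf1 at 92.0 and 45.5 CPM (interval of the log2 ratio -1.09 to -0.94). Gata1 was at 49.3 and 27.2 CPM (-0.84) and Tal1 at 68.5 and 45.2 CPM (-0.59, close to the threshold). The call of Tal1 was lost when cells positive for both hashtags were also removed (-0.52) and with thinned cells (-0.40). Lmo2 was at 336 and 260 CPM (-0.37), Gata2 at 60.1 and 68.7 CPM (0.19) and Nfe2 at 65.4 and 66.3 CPM (0.02), and these 3 were not called. In bulk sums, fewer cells of a type and less RNA per cell cannot be told apart.

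The erythroid progenitor-like share of cells was 22.2% in control, 27.1% with the Mll3 label and 9.4% with the Mll4 label. With the classes of the library labelled Mll4 weighted by control's UMI shares, an alternative chosen after seeing the data, 0 of the 8 factors were called lower. Gata1 then stood at 0.17, Klf1 at 0.11 and Tal1 at 0.27 on the log2 scale, which turned the direction, and Zfpm1 at -0.34 and Gfi1b at -0.25. Gata2 became the single call, at 0.69 higher. Control's own class levels were also taken at the class shares of the library labelled Mll4. They gave -0.99 for Gata1, -1.09 for Klf1, -0.85 for Tal1, -0.97 for Gfi1b and -0.93 for Zfpm1. The measured ratios of Gata1 (-0.84), Klf1 and Tal1 (-0.59) were less low than those values. The measured ratios of Gfi1b (-1.16) and Zfpm1 (-1.27) were lower than those values. The shares come from a Kit+ sort of 1 library per group.

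**Figure D3:**
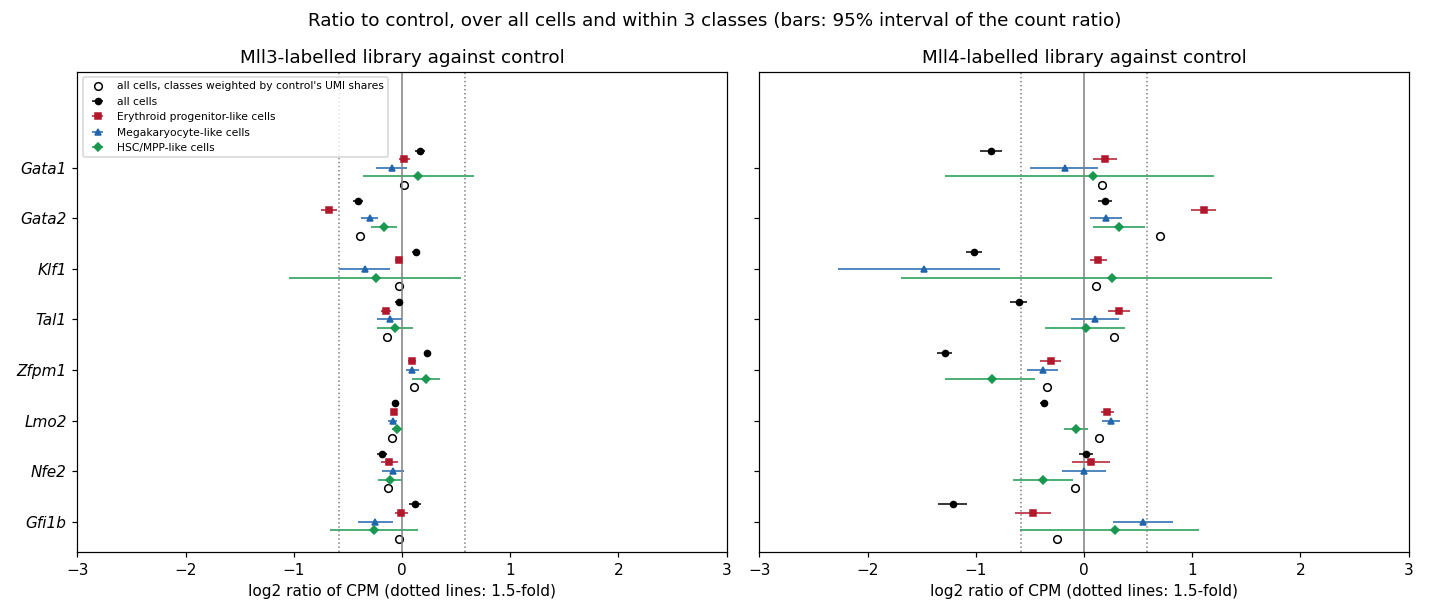
Log2 ratio of CPM to control for each factor, without the added 1 CPM, in the Mll3-labelled (left) and Mll4-labelled (right) libraries; filled points are all cells or 1 class with 95% intervals of the count ratio, open circles are all cells with classes at control's UMI shares, and dotted lines mark 1.5-fold. On the right, the all-cell points of Gata1, Klf1, Tal1, Zfpm1 and Gfi1b lie left of the lower line while their open circles lie inside both lines, and Gata2 in erythroid progenitor-like cells lies right of the upper line.

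Within erythroid progenitor-like cells, Gata2 was the factor that differed in both single-deletion libraries, and in opposite directions. It stood at 50.3 CPM in control, at 31.5 CPM in the library labelled Mll3 (3518 and 2190 counts) and 108 CPM in the library labelled Mll4 (731 counts). The log2 ratios were -0.66 (interval -0.75 to -0.60) and 1.09 (0.99 to 1.22). It was the 1 of 8 factors called in each comparison. With Mll3, 2.45% of 12137 genes were called lower and 0.816% higher. With Mll4, 4.76% of 11963 genes were called lower and 17.6% higher. The median gene there stood at 0.18, edgeR's TMM scaling moved every ratio by -0.22, and the share of calls that were higher was 78.7%, or 41.5% with TMM. The Gata2 call in the library labelled Mll4 held under each alternative tried in this class. The call in the library labelled Mll3 did not hold when cells rather than UMIs were weighted equally (-0.40) or with clusters at control's cell shares (-0.27).

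The other 7 factors were not called in these cells. Gata1 was at 93.9, 95.3 and 108 CPM in control and the libraries labelled Mll3 and Mll4, and Klf1 at 195, 191 and 214 CPM. Tal1 was at 110, 99.5 and 138 CPM and Lmo2 at 322, 305 and 373 CPM. With Mll4 the ratios of these 4 were 0.20, 0.13, 0.32 and 0.21, and TMM scaling turned those of Gata1, Klf1 and Lmo2 below 0, as it did that of Nfe2 (0.07). Zfpm1 was at 181, 193 and 146 CPM and Gfi1b at 64.2, 64.0 and 46.4 CPM. The 2 had the lowest ratios with Mll4, at -0.31 and -0.46, and TMM scaling took that of Gfi1b past the threshold, at -0.68. Nfe2 was at 41.8, 38.6 and 43.9 CPM.

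On the log2 scale, the difference in Gata2 from control was larger in cluster 8 than in the other 2 erythroid progenitor-like clusters. In cluster 8 Gata2 stood at 26.6 CPM (interval 25.2 to 28.2) in control, at 12.2 CPM (11.2 to 13.2) in the library labelled Mll3 and 73.7 CPM (66.1 to 82.0) in the library labelled Mll4. The log2 ratios were -1.07 (-1.27 to -0.99) and 1.44 (1.29 to 1.64). In that cluster 2.47% of 11346 genes were called lower and 1.19% higher with Mll3, and 5.96% of 11083 genes were called lower and 19.2% higher with Mll4. In cluster 6 Gata2 was at 55.5, 45.7 and 96.1 CPM, and in cluster 2 at 162, 149 and 272 CPM. The ratios with Mll3 were thus -0.27 and -0.12 in these less mature clusters, within 1.5-fold, and those with Mll4 were 0.78 and 0.74. Gata1 in cluster 8 was at 101, 101 and 114 CPM. Gfi1b in that cluster was at 77.9 CPM in control. Over pairings of the hashtags described below, its log2 ratio ran from -0.75 to -0.52 with Mll4 and from -0.20 to 0.08 with Mll3.

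The ratio of Gata1 to Gata2 sets both factors side by side within each library. On a log2 scale it was -1.32, 0.67 and 1.93 in clusters 2, 6 and 8 of control. In the library labelled Mll3 it was -1.19, 0.94 and 3.06, and in the library labelled Mll4 -1.58, 0.00 and 0.63. Gata1 counts exceeded Gata2 counts in cluster 8 of all 3 libraries, by the widest margin in the Mll3-labelled one and the narrowest in the Mll4-labelled one.

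To set cells at like levels of erythroid markers side by side, cells were thinned to 2000 UMIs and placed in 4 groups by their marker UMIs, with limits at 4, 7 and 11 marker UMIs that cut the control cells into 4 groups as even as whole UMIs allow. This comparison was added after seeing the data, and left out 13, 9 and 5 cells with fewer UMIs. From the first to the last group Gata2 was at 141, 59.9, 38.6 and 29.5 CPM in control. It was at 120, 44.8, 22.9 and 12.7 CPM in the library labelled Mll3 and at 236, 104, 80.3 and 78.9 CPM in the library labelled Mll4. From first to last it differed by -2.21 on the log2 scale in control (interval -2.39 to -2.12), by -3.14 in the library labelled Mll3 (-3.42 to -3.06) and by -1.57 in the library labelled Mll4 (-1.88 to -1.28). The log2 ratio to control widened along the groups, from -0.23 to -1.16 with Mll3 and from 0.75 to 1.39 with Mll4. In the last group the summed erythroid markers were at 6125, 6135 and 5806 CPM. The groups were cut on these same markers, so close sums were built in. They do not show that the cells were at a like stage, and single markers could still differ.

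Between the first and last groups, Klf1 and Nfe2 each differed in the same direction in all 3 libraries. Klf1 was 1.80-fold higher in the last group than in the first in control. It was 1.86-fold higher in the library labelled Mll3 and 1.80-fold in the library labelled Mll4. In the middle groups Klf1 was at 159 and 201 CPM in control, 170 and 189 CPM with Mll3, and 229 and 220 CPM with Mll4. Its log2 ratio with Mll4 in the earlier of these was 0.52 (0.36 to 0.68). Nfe2 had the opposite course, with the first group 2.59-, 2.91- and 3.54-fold above the last. Gata1 went from 75.8 to 102 CPM in control, from 73.7 to 106 CPM with Mll3 and from 101 to 118 CPM with Mll4, and the interval of the last of these steps spanned 0 on the log2 scale (-0.13 to 0.58). Zfpm1 differed by at most 1.29-fold between the first and last groups. The log2 ratios of Gfi1b to control along the groups were -0.29, 0.15, -0.89 and -0.54 with Mll4. With Mll3 they were -0.43, -0.01, -0.01 and 0.01. The intervals of the last 2 groups with Mll4 were -1.27 to -0.56 and -0.85 to -0.27.

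**Figure D4:**
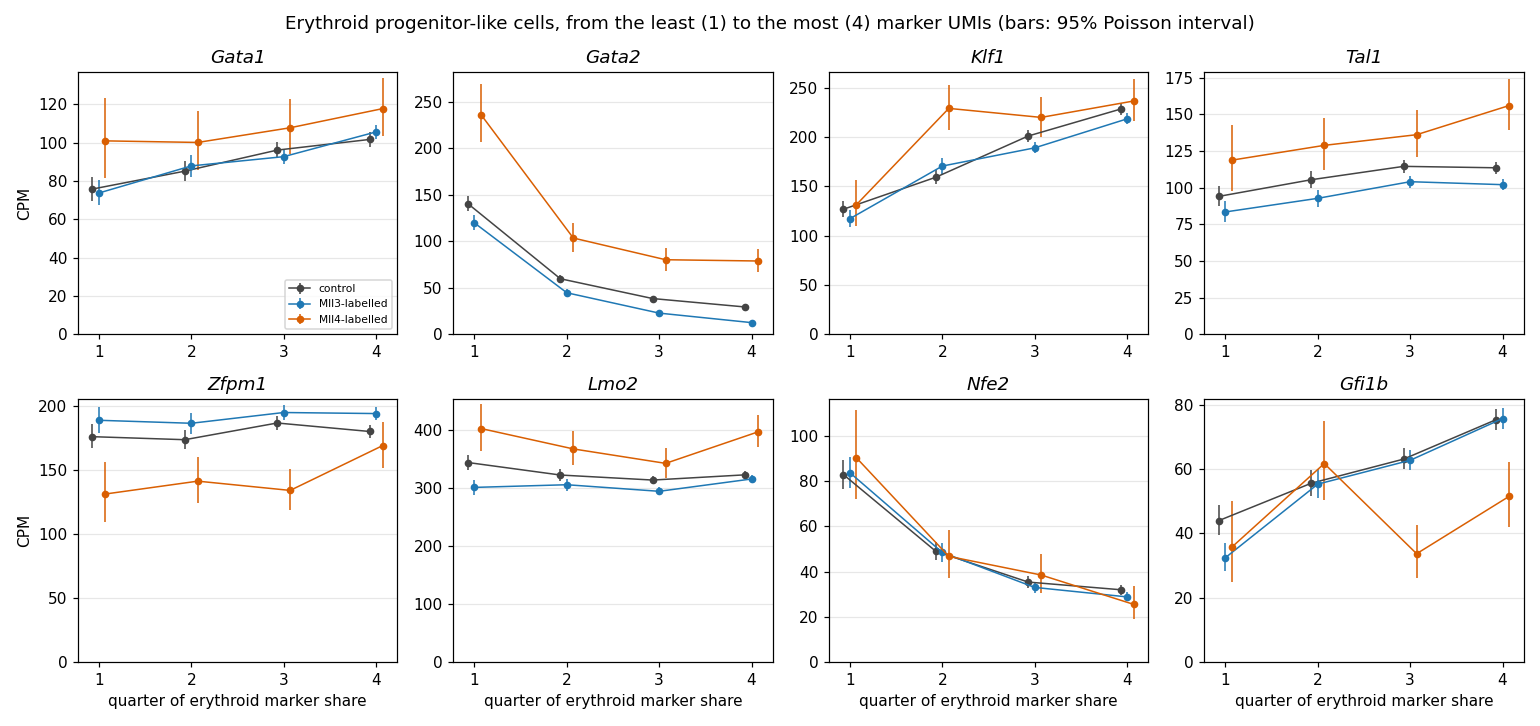
Level of each factor in CPM (y axis, from 0) in 4 groups of erythroid progenitor-like cells ordered from the fewest to the most erythroid marker UMIs (x axis), with 95% Poisson intervals, for 3 libraries. Gata2 descends in all 3 but ends at 12.7 CPM in the library labelled Mll3, 29.5 in control and 78.9 in the library labelled Mll4, while the Klf1 lines lie close together in the last group.

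Cells with UMIs of both Gata1 and Gata2 were counted after thinning to 2000 UMIs. Their share of erythroid progenitor-like cells was 1.90% in control (exact binomial interval 1.29 to 2.71), 1.58% in the library labelled Mll3 (1.03 to 2.33) and 6.43% in the library labelled Mll4 (4.44 to 8.95). Without thinning the shares of the whole class were 61.3%, 45.2% and 45.5%, at median depths of 47503, 46258 and 13031 UMIs. In neutrophil-like cells, which should lack both, 0 of 1753 thinned control cells had both (exact upper bound 0.210%). Gata2, with or without Gata1, was detected in 14.3%, 11.6% and 25.1% of thinned erythroid progenitor-like cells and in 0.34%, 0.30% and 0.30% of thinned neutrophil-like cells. Its unthinned shares were 73.6%, 56.1% and 68.8% against 1.85%, 1.38% and 0.89%, the neutrophil-like cells having median depths of 13538, 13955 and 4900 UMIs. The shares in erythroid progenitor-like cells as a whole were therefore well above the level in a cell type without the gene.

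Markers of other cell types were also measured in these cells. The 11 neutrophil markers summed to 571, 518 and 3029 CPM in cluster 8 of control and the libraries labelled Mll3 and Mll4, all 11 detected in each. Gata2 in neutrophil-like cells themselves was at 1.4, 1.0 and 1.7 CPM. The 7 basophil/mast markers summed to 3.1, 1.8 and 10.4 CPM in cluster 8, with 0, 2 and 2 of them at 0. In cluster 2 they summed to 41.4, 18.6 and 230 CPM, and their part in the Gata2 level of that cluster was not tested. The 12 megakaryocyte markers summed to 6.2, 5.1 and 7.6 CPM in cluster 8, with 3, 2 and 5 at 0.

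Each library held cells marked by 2 hashtag antibodies, and the labels do not say what the hashtags mark, so they are not counted as replicates. Gata2 in cluster 8 was at 27.0 and 25.7 CPM in the cells of hashtag 1 and hashtag 2 in control, at 12.1 and 12.2 CPM in the library labelled Mll3 and at 76.9 and 67.7 CPM in the library labelled Mll4. Neither hashtag of 1 library overlapped those of another in this cluster. Over the 4 pairings of hashtags the log2 ratio ran from -1.10 to -1.02 with Mll3 and from 1.30 to 1.54 with Mll4. In cluster 2 of the library labelled Mll3, 1 hashtag lay below both of control's and the other above both.

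**Figure D5:**
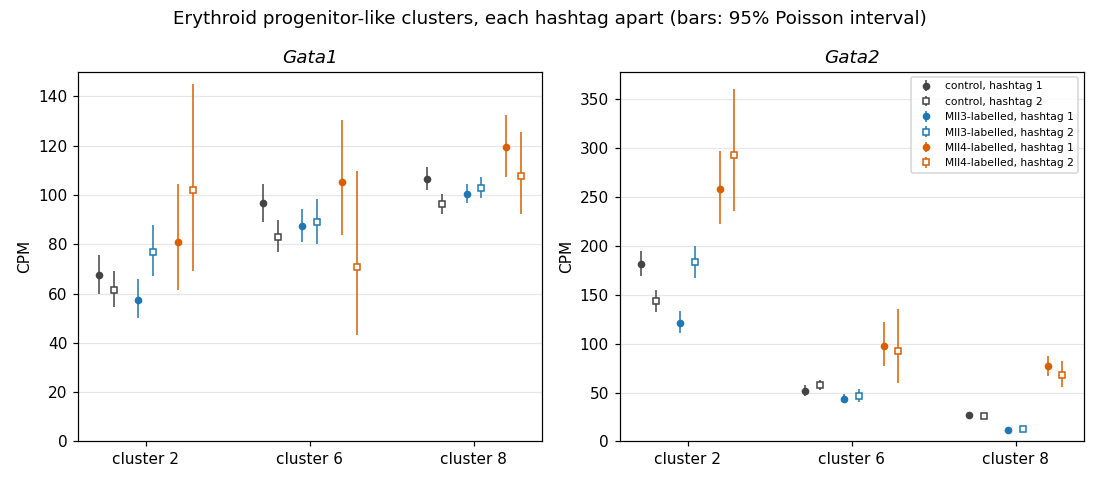
Gata1 (left) and Gata2 (right) in CPM (y axes, from 0) in the 3 erythroid progenitor-like clusters, with the cells of each hashtag apart as filled and open symbols and 95% Poisson intervals. In cluster 8 the Gata2 levels of the 2 hashtags lie together within each library, at 27.0 and 25.7 CPM in control, 12.1 and 12.2 CPM in the library labelled Mll3 and 76.9 and 67.7 CPM in the library labelled Mll4.

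Gata2 and Nfe2 were also higher in erythroid progenitor-like cells with staining of early progenitors. CD41, a platelet integrin chain also present on early progenitors, was above its threshold on 306 of 1589 control cells, 165 of 1587 cells in the library labelled Mll3 and 139 of 503 in the library labelled Mll4. Gata2 was at 132 CPM in CD41-positive and 40.8 CPM in CD41-negative cells of control, at 97.8 and 26.8 CPM in the library labelled Mll3 and at 246 and 88.4 CPM in the library labelled Mll4. The log2 differences were 1.67, 1.83 and 1.47. Nfe2 was higher in CD41-positive cells too, by 1.09, 0.82 and 1.26 on the log2 scale, and Gata1 differed by -0.25, -0.26 and -0.20. With CD150, a receptor of stem cells and early megakaryocyte-erythroid progenitors, the Gata2 differences were 1.41, 1.98 and 1.08. CD41-positive cells were shallower, with a median of 15822.5 UMIs against 52333 in control, and the part of depth was not tested.

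In megakaryocyte-like cells 0 of 8 factors were called with Mll3, where 4.22% of 11338 genes were called lower and 1.90% higher. The ratios ran from -0.33 for Klf1 to 0.09 for Zfpm1. With Mll4 1 of 8 was called, Klf1, at 23.7 CPM in control and at 8.5 CPM in the library labelled Mll4 (360 and 17 counts, -1.38, interval -2.27 to -0.78). There 9.23% of 11165 genes were called lower and 18.5% higher. Of those calls 66.7% were higher, and 43.3% with TMM scaling. The 12 erythroid markers summed to 348 CPM in megakaryocyte-like cells of control, 273 CPM in the library labelled Mll3 and 167 CPM in the library labelled Mll4, where 4 of the 12 were at 0, and their part in the Klf1 level was not tested. Gfi1b was at 44.0 and 64.5 CPM (0.54), Zfpm1 at 284 and 218 CPM (-0.38) and Gata2 at 191 and 219 CPM (0.20) in control and the library labelled Mll4. Gata1, Tal1 and Nfe2 lay within 0.17 of control on the log2 scale, and Lmo2 at 0.25.

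In HSC/MPP-like cells 0 of 8 factors were called with Mll3, where 3.53% of 11546 genes were called lower and 1.93% higher. With Mll4 1 of 8 was called, Zfpm1, at 74.5 CPM in control and at 41.2 CPM in the library labelled Mll4 (1010 and 52 counts, -0.84, interval -1.28 to -0.45). There 13.3% of 11439 genes were called lower and 18.6% higher. Of those calls 58.3% were higher, and 41.3% with TMM scaling. Of the 913 control cells 629 lay in cluster 4, and with clusters 4 and 13 weighted by control's cell shares the ratio was -0.40, which ended the call. Clustering with another seed gave -0.20. Gata2 was at 103, 91.4 and 128 CPM in control and the libraries labelled Mll3 and Mll4, and Lmo2 at 627, 606 and 596 CPM. Gata1 and Klf1 rested on 7 and 4 counts in the library labelled Mll4, too few to show a difference.

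Over all cells of the library labelled Mll3/4, 8 of 8 factors were called lower, where 21.6% of 15158 genes were called lower and 20.7% higher. Gata1 was at 0.270 CPM (interval 0.167 to 0.413), Klf1 at 0.464, Gfi1b at 0.322 and Tal1 at 0.785 CPM. Gata2 was at 1.27 CPM, Nfe2 at 2.12, Zfpm1 at 5.56 and Lmo2 at 5.90 CPM. Of the 21 Gata1 counts 57.1% came from the 6 megakaryocyte-like cells and 33.3% from the 2 erythroid progenitor-like cells, so that 8 of 6917 cells held most of the signal of this gene.

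Within B-cell progenitor-like cells 3 factors passed the count minimum in control, and all 3 were called lower in the library labelled Mll3/4, where 14.9% of 13467 genes were called lower and 18.0% higher. Zfpm1 was at 122 CPM in control (395 counts, 490 cells) and 4.39 CPM in the library labelled Mll3/4 (333 counts, 6831 cells). Lmo2 was at 67.5 and 1.62 CPM and Nfe2 at 10.8 and 0.632 CPM. With cells thinned to 2000 UMIs the call of Nfe2 was lost on too few counts, at a log2 ratio of -2.49. In the library labelled Mll3 Zfpm1 was at 116 CPM in the same class and in the library labelled Mll4 at 63.8 CPM, on 23 counts. Gata1 and Gfi1b had 0 counts in the 6831 cells, which allows up to 0.040 CPM (3 counts). All but a few cells of the class lay in clusters 0, 15 and 19 in control and in clusters 22 to 26 in the library labelled Mll3/4. Largely different clusters were thus compared.

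In basophil/mast-like cells, which express Gata2 as part of their own programme, Gata2 was at 531, 456 and 780 CPM in control and the libraries labelled Mll3 and Mll4 (128, 68 and 243 cells). Nfe2 was at 130, 70.5 and 36.7 CPM and Lmo2 at 213, 129 and 124 CPM, both below control in each of the single-deletion libraries. Zfpm1 was at 68.8, 51.8 and 23.1 CPM and Tal1 at 78.2, 64.7 and 125 CPM. The log2 ratios with Mll4 were -1.80 for Nfe2, -1.53 for Zfpm1, -0.78 for Lmo2, 0.67 for Tal1 and 0.55 for Gata2, on 574 Gata2 counts and 17 Zfpm1 counts.

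Genes of proteins that work with the 8 factors were counted next. Of 15 partner and cofactor genes, 14 had enough counts in erythroid progenitor-like cells. With Mll3, 1 of the 14 was called lower, Fli1, an ETS factor of megakaryocytes (10.0 and 6.1 CPM), and 0 higher, beside 2.45% and 0.816% of all genes tested, and their median was -0.07 beside -0.05 for all genes tested. With Mll4, 2 of the 14 were called higher and 0 lower, beside 17.6% and 4.76% of all genes tested, and their median was 0.14 beside 0.18 for all genes. These 2 were Tcf3, which encodes the E proteins that pair with TAL1 (102 and 181 CPM, 0.83), and Mafk, which encodes a small MAF partner of NF-E2 (12.7 and 23.9 CPM, 0.86). Kdm1a, the demethylase recruited by GFI1B, was at 82.4 and 60.6 CPM (-0.44), and was not called. In megakaryocyte-like cells 0 of 14 partners were called with Mll3, and with Mll4 2 were called lower, Ldb1 (-0.64) and Lyl1 (-0.75), and 2 higher, Tcf3 (0.78) and Mafk (0.65), where 9.23% of all genes were called lower and 18.5% higher. In HSC/MPP-like cells 0 of 14 were called with Mll3, and with Mll4 2 higher and 1 lower, beside 18.6% and 13.3% of all genes.

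Genes of the red cell programme, some of them known targets of the factors, were counted in the same cells. Of 17 measured in erythroid progenitor-like cells, 1 was called with Mll3, the adult beta globin gene Hbb-bt, at 64.3 and 17.5 CPM (-1.82), where 2.45% of all genes were called lower and 0.816% higher. The median of the 17 was -0.09. The alpha globin gene Hba-a1 was at 33.8 and 49.0 CPM (0.52) and was not called. With Mll4, 5 were called lower and 1 higher, beside 4.76% and 17.6% of all genes tested, with a median of 0.01 beside 0.18 for all genes. The lower ones included Hba-a1 (-1.13), the biliverdin reductase gene Blvrb (780 and 400 CPM, -0.96), Icam4 (73.7 and 41.4 CPM, -0.82) and Rhd (102 and 61.4 CPM, -0.72), both red cell surface proteins. The gene called higher is not named here. Of the 17, 11 were not called and 7 lay below control, so the named genes do not stand for the list. Over all cells with Mll4, 13 of 17 were called lower and 0 higher, beside 11.3% and 15.1% of all genes tested, with a median of -0.85 beside 0.02 for all genes, in the library with the smaller share of erythroid progenitor-like cells.

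Platelet genes and factors of other lineages were counted in the same way. In megakaryocyte-like cells 3 of 14 megakaryocyte genes were called higher and 2 lower with Mll4, beside 18.5% and 9.23% of all genes tested. With Mll3, 1 was called higher and 2 lower, beside 1.90% and 4.22%. Itga2b, which encodes CD41, was at 217 and 532 CPM in control and the library labelled Mll4 (1.29). Of the 14 genes, 9 were not called with Mll4 and 4 lay below control. Their median was 0.25 beside 0.15 for all genes tested, and the genes called lower are not named here. In erythroid progenitor-like cells of the library labelled Mll4, 5 of 9 factors of other lineages were called higher, beside 17.6% of all genes tested, with a median of 0.80. Among them were Cebpa and Cebpe, both neutrophil factors, at 4.1 CPM each on 28 counts, and the neutrophil markers given above were higher in the same cells. Over all cells of the library labelled Mll3/4, 15 of 17 red cell genes and 13 of 14 megakaryocyte genes were called lower, beside 21.6% of all genes tested.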

How the data were processed

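The deposited matrices hold raw UMI counts per gene and antibody for each barcode, made by the authors with Cell Ranger 6.1.2 on mm10, per the submitters' processing notes. The annotation release is not given in the sources used here. Barcodes with at least 500 genes, at least 1000 UMIs and at most 10% mitochondrial UMIs were kept, and the highest Scrublet scores were removed at 0.8% per 1000 barcodes. Cells of the 4 libraries were clustered together in scanpy 1.11.5 (2000 variable genes, 30 components, 15 neighbours, Leiden from leidenalg 0.10.2 at resolution 1), without the 8 factors. Clusters were named from 12 marker lists, which leaves doublets and misnamed cells possible.

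From the deposited counts, CPM were computed over the summed gene UMIs of a library or class. Total gene UMIs of kept cells were 153615605, 135986150, 32777830 and 77657652 in control and the Mll3-, Mll4- and Mll3/4-labelled libraries. Intervals came from scipy 1.17.1 and TMM scaling from edgeR 4.0.16. The calling rule was tried on simulated counts, with changes larger than the threshold in well-counted genes and counting noise only. It was therefore not checked near 1.5-fold, at few counts or against differences between libraries. Genes were named by a rule: all 8 factors, the 3 genes most like each, and up to 4 per list with the largest ratio among genes with at least 100 counts. 1 gene among those most like Zfpm1 is not reported here. The 8 factors, lists and alternatives were chosen with earlier results of these data known. Positions came from GENCODE M21.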

Additional observations from a re-analysis of the deposited data

Results flagged for a closer look

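Gfi1b and Zfpm1 lay on opposite sides of control in different cell groups of the library labelled Mll4, and these differences were not tested. Gfi1b was below control in basophil/mast-like cells (log2 ratio -1.40, on 6 counts) and above it in cluster 3 (1.62, on 25 counts), a difference of 3.02. Cluster 3 is an unnamed cluster of 1409 cells led by Prg2, Cd34 and Flt3, and between control and the library labelled Mll4 its HSC/MPP markers went from 191 to 491 CPM, its megakaryocyte markers from 42.3 to 122 CPM, its granulocyte progenitor markers from 6174 to 2977 CPM and its neutrophil markers from 1180 to 3426 CPM. In basophil/mast-like cells the basophil/mast markers went from 3014 to 11868 CPM and the neutrophil markers from 1649 to 5330 CPM. The part of these markers in the differences was not tested. Zfpm1 was below control in HSC/MPP-like cells (-0.84) and above it in cluster 3 (0.60), a difference of 1.43. The value in HSC/MPP-like cells depended on the processing. It was -0.20 with another clustering seed, -0.31 at Leiden resolution 2 and -0.28 with thinned cells, none of them called. Zfpm1 was also below control in basophil/mast-like cells (-1.53), a difference of 2.13 from cluster 3.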

How the results depend on the processing

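No paired analysis was possible because each group had 1 library, and leaving out a replicate could not be done for the same reason. Of 1042 values of the factors under 16 alternatives, 836 stayed inside the counting interval of the reported value, 203 moved beyond it and 3 called values turned direction. The 3 were Gata1 (0.17), Klf1 (0.11) and Tal1 (0.27) over all cells with Mll4, with classes at control's UMI shares, and the count called there was 1 instead of 5. Among values that were not called, 80 changed sign. The count of 5 over all cells was 2 at a 2-fold threshold and 3 in cells of hashtag 1 alone. It was 4, without Tal1, with the mean of per-cell shares (-0.55), thinned cells (-0.40), 10 CPM added (-0.51) and cells positive for both hashtags also removed (-0.52). In erythroid progenitor-like cells with Mll3 the count was 0 instead of 1 with the mean of per-cell shares, cells thinned to 2000 UMIs, a 2-fold threshold, 10 CPM added, clusters at control's cell shares, or cells of hashtag 2 alone. With Mll4 it was 2 instead of 1 with TMM scaling and with thinned cells, Gfi1b being the one added. In megakaryocyte-like cells it was 1 instead of 0 with Mll3 when thinned, and 2 instead of 1 with Mll4 with per-cell shares, without removal of doublets, with the factors allowed in the clustering, and with clusters at control's shares. In HSC/MPP-like cells with Mll4 it was 0 instead of 1 at 2-fold and in hashtag 2 cells, 3 at Leiden resolution 2 and 2 with another seed. The genes called were not the same: at resolution 2 they were Gata1 (0.82), Klf1 (-0.67) and Gfi1b (0.63), and with another seed Gata1 (1.33) and Klf1 (-1.59), while Zfpm1 was at -0.31 and -0.20. Zfpm1 was replaced by Gfi1b (-0.83) with thinned cells, by Gata1 with both-hashtag cells removed and by Klf1 (-0.77) with clusters at control's shares. In B-cell progenitor-like cells the call of Nfe2 with Mll3/4 was lost with thinned cells (-2.49) and at a count minimum of 100, on fewer counts than the minimum. Gata2 in the most mature erythroid cluster gave -0.89 with Mll3 and 1.26 with Mll4 without removal of doublets, and 1.20 with Mll4 at resolution 2. Weighting clusters could not be run for B-cell progenitor-like cells of the library labelled Mll3/4, because no cluster held enough of them from both libraries. Cluster 0 held 316 in control and 4 with Mll3/4, and cluster 22 held 1 and 1742. Depth limited the library labelled Mll4 most, with a median of 5142 UMIs per cell. The hashtag, marker-group, mature-cluster and UMI-share alternatives were chosen after seeing the data.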

Other observations

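In cluster 3, the unnamed cluster with Prg2, Cd34 and Flt3 (627, 408 and 371 cells in control and the libraries labelled Mll3 and Mll4), Gata2 and Tal1 were higher in the library labelled Mll4 than in control, and so was Gata1 on few counts. There the 9 HSC/MPP markers summed to 191 CPM in control and 491 CPM in the library labelled Mll4, the 12 megakaryocyte markers to 42.3 and 122 CPM, the 5 granulocyte progenitor markers to 6174 and 2977 CPM and the 11 neutrophil markers to 1180 and 3426 CPM. Of the 12 megakaryocyte markers 2 were at 0 in each library and none of the HSC/MPP markers was, and the part of these cell types in the factors' levels was not tested. Gata2 was at 55.6, 49.4 and 122 CPM, on 575, 320 and 239 counts. Gata1 was at 1.8, 3.4 and 10.7 CPM, on 19, 22 and 21 counts, and Tal1 at 32.4, 32.6 and 54.2 CPM. Lmo2 was at 544, 513 and 645 CPM and Nfe2 at 89.1, 86.3 and 104 CPM, both within 1.5-fold of control in the 2 single-deletion libraries. Klf1 had 13, 11 and 0 counts.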
